A study of Mus musculus with 6 samples.

Results

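DNA methylation was followed at 53 listed genes that build the axoneme, the microtubule core of cilia and sperm tails, and the trains that carry its parts. A gene counted as measured when at least 3 cytosine positions, from 1000 bp before to 1000 bp past the gene, had 10 or more reads in all 6 libraries. This held for 48 of the 53, with 2253 positions, among 22317 genes measured in all. They were 22 of 22 genes of motile cilia, 18 of 21 genes used by all cilia and 8 of 10 genes of the sperm tail. The sorting into these classes rests on general knowledge of the genes and not on the data. Odf1, Tekt3, Bbs5, Ift74 and Ift22 were not measured.

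The samples were right testes of KM mice, sampled at body maturation. In 3 mice the left testis had been taken out before puberty (hemicastrated), and 3 mice had sham surgery at the same time (sham). Each mouse gave 1 library by reduced representation bisulfite sequencing, in which DNA is cut with MspI at CCGG, converted so that unmethylated cytosines read as T, and sequenced. The methylation level of a window is the share of its calls that were methylated, with the reads of all its sites summed. Whole testis was sampled, so a different mix of cells and a different level within a cell type cannot be told apart here.

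Cilia and sperm tails are lengthened from the tip, and intraflagellar transport brings the building blocks there: IFT-B complexes ride outward, IFT-A complexes return, and the BBSome links membrane proteins to the train. Dynein arms, radial spokes and the central pair then move and steer the axoneme, tektins strengthen its microtubule doublets, and outer dense fibres and the fibrous sheath surround it in sperm only. In the testis these genes serve the spermatids that grow a tail, and factors of the RFX family and FOXJ1 switch many of them on. Promoters rich in CpG are mostly free of methylation in mammalian cells, while CpGs inside genes are mostly methylated.

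Over the whole series, libraries held 64504011 to 78630942 calls, and 952515 sites had 10 reads in every library. On mitochondrial DNA, which is nearly unmethylated, 0.478% to 0.617% of calls read as methylated, with 0.573%, 0.504% and 0.478% in the hemicastrated libraries and 0.617%, 0.514% and 0.531% in the sham libraries. Levels of this size at a gene cannot be told apart from incomplete conversion. RNA was not measured in these files. At the ends of 8 measured germ cell marker genes of 10 listed, levels lay between 9.55% and 23.9%, 6 of the 8 being higher in hemicastrated mice by the group means, with a median difference of 2.18 points. The ends of Sertoli cell markers lay between 0.537% and 3.73% (4 windows), of Leydig cell markers between 5.94% and 97.2% (6 windows) and of blood and macrophage markers at 44.9% and 93.6%. By edgeR's quasi-likelihood test 0 of these windows differed between the groups after adjustment, and 1, of a Leydig cell marker, had an unadjusted p below 0.05. The part of the cell mix in the results that follow was not tested.

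The promoters that carry the results are shown as RefSeq gives them on GRCm38.p6, from 250 bases before to 50 after a transcription start, 5′ to 3′ on the gene's strand. Every CpG is in capitals, because the kept sites lie almost only on CpGs. Not every CpG shown was measured. Starts of Ttc21b (chr2:66256568-66256867, minus strand), Spag17 (chr3:99885167-99885466, plus strand), Bbs1 (chr19:4906578-4906877, minus strand) and Ift88 (chr14:57423821-57424120, plus strand) are shown because their levels are followed between the groups. The inner starts of Meig1 (chr2:3419080-3419379, minus strand) and Dnah1 (chr14:31323847-31324146, minus strand) are shown because they lie outside the end windows and were unmethylated. The start of Akap3 (chr6:126852848-126853147, plus strand) is shown because it holds 0 CpGs, so that no CpG methylation can be read in it.
Ttc21b start: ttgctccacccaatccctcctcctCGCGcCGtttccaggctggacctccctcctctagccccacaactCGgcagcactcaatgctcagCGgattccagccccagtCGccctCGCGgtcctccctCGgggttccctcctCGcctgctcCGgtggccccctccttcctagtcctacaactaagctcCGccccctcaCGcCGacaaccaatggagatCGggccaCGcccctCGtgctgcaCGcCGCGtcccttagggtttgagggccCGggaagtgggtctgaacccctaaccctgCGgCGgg
Spag17 start: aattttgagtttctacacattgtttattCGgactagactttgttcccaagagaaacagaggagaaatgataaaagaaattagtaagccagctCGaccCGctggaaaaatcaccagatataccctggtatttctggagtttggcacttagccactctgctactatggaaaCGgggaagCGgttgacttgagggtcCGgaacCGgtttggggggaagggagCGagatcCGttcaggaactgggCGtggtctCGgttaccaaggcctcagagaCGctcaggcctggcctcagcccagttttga
Bbs1 start: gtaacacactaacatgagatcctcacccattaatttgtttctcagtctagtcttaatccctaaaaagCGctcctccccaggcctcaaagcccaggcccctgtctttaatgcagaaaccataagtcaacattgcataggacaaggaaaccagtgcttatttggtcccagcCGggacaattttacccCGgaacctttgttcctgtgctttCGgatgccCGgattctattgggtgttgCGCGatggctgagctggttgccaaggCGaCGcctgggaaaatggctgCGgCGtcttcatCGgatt
Ift88 start: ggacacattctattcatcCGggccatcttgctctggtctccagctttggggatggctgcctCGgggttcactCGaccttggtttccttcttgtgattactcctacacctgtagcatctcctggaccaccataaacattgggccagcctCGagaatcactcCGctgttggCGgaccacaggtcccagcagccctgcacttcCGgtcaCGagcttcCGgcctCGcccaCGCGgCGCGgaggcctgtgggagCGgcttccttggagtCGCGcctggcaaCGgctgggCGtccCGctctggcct
Meig1 inner start: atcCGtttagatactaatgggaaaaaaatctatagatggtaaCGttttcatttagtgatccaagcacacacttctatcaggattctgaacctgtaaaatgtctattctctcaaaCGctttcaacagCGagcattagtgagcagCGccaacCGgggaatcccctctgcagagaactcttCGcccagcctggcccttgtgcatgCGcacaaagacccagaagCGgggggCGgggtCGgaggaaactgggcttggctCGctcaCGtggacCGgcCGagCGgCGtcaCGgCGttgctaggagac
Dnah1 inner start: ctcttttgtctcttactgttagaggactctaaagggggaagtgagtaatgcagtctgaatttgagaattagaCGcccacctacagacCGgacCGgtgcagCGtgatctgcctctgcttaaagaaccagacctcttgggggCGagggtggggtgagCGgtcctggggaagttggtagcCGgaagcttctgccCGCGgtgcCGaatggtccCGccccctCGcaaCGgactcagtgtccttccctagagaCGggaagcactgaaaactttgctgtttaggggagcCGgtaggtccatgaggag
Akap3 start: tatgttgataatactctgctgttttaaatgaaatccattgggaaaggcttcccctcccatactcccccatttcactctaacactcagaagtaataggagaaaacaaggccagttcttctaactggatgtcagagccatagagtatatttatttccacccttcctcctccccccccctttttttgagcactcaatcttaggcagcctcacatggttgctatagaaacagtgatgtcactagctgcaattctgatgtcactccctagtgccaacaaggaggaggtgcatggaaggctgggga

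Of the 53 members, 45 had a promoter in this RefSeq table, with 53 promoters in all, and these also gave the strand. They were rich in CpG: the median promoter held 14, against 7 over 32851 promoters of all genes. The median was 21 CpGs for genes of all cilia, 12 for motile cilia and 12 for sperm tail genes, where single promoters ran from 0 (Akap3) to 43 (Odf2). The 6 letters GTTGCC, the core of the site bound by RFX factors, occurred on either strand in 18 of the 53 (34.0%) and in 12.5% of all promoters of this length. Those 18 belonged to 17 genes: 8 of 18 genes of all cilia, 8 of 19 of motile cilia and 1 of 8 of the sperm tail. The forkhead letters GTAAACA, of the kind FOXJ1 binds, were in 2 of the 53 (3.77%) and in 3.65% of all. A match is a string of letters and not a bound site. In the 20 promoters with at least 3 measured sites, from 17 genes, levels ran from 0.362% to 3.76%, and 31 promoters held no measured site.

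Gene ends, the windows of 1000 bp either side of a gene's boundaries, were nearly free of methylation at the starts of most members, but not at most far ends. The 37 measured end windows, from 31 genes, had a median level of 0.783%, and 29 of them lay below 5%. Over the 16802 end windows of all genes the median was 0.684%, and 69.1% were below 5%. Starts made up 25 of the 37 member windows and 9486 of the 16802, so these shares rest on different mixes of sides. At the start of the gene, 24 of the 25 member windows were below 5%, against 85.8% of 9486 windows of all genes. The exception was Tekt2, a tektin of sperm and respiratory cilia, at 20.8%. At the far end of the gene, 6 member windows had a median of 50.2%, against 73.5% for 2464 windows of all genes.

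**Figure D1:**
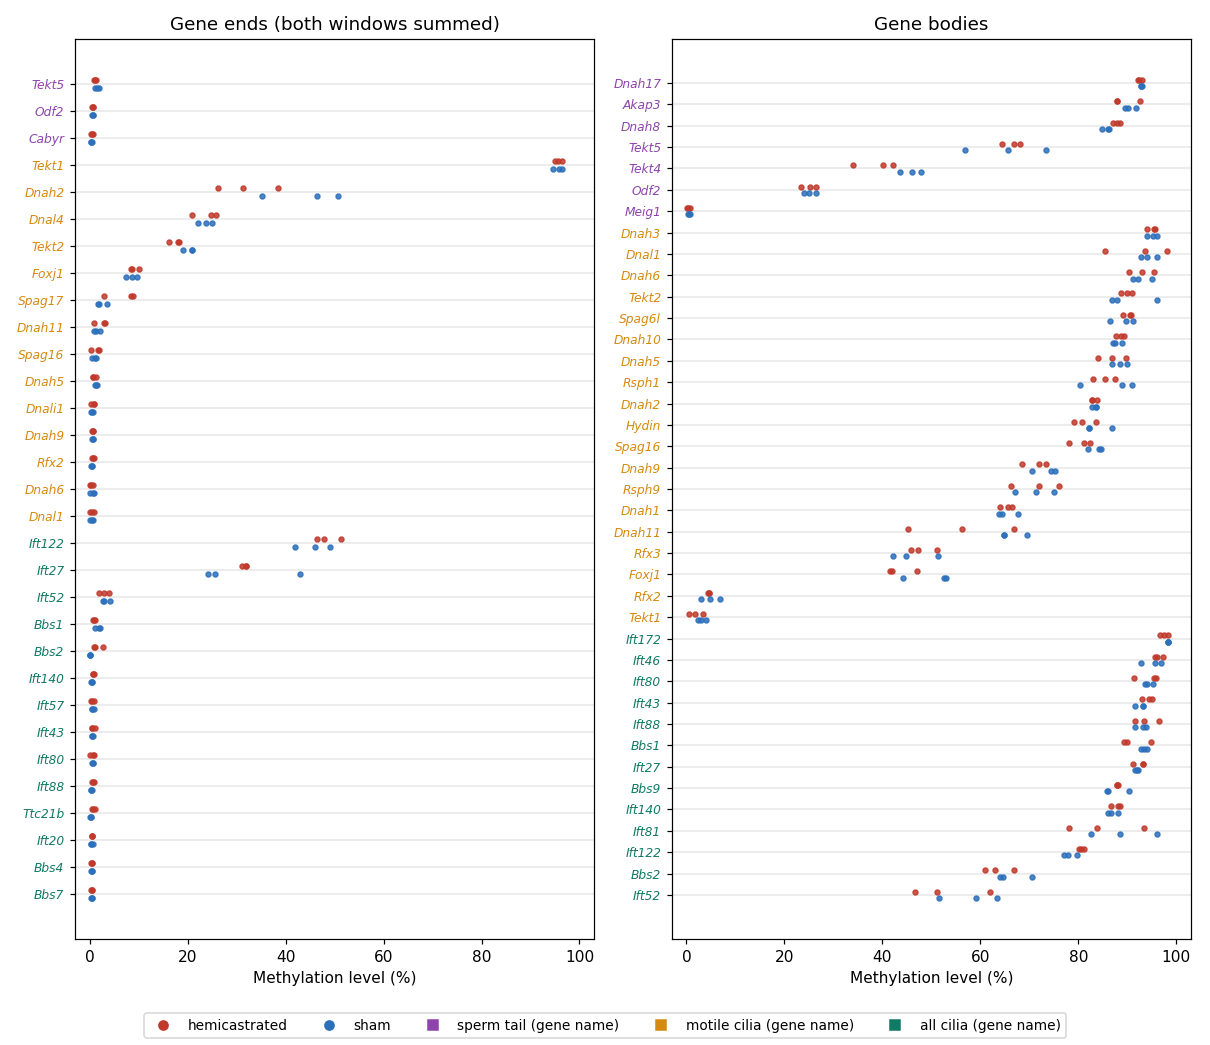
Methylation level in percent of each measured member at its gene ends (left, both end windows summed) and in its body (right); each point is 1 library, red for hemicastrated and blue for sham, and the gene names are coloured by class. Of 31 genes with ends, 24 sit below 5%, while 24 of 39 bodies sit above 80%.

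The lowest ends were at the level of mitochondrial DNA. Among genes of all cilia, the start of Bbs7, a BBSome subunit, read 0.343%, 0.424% and 0.454% in hemicastrated replicates 1 to 3 and 0.562%, 0.412% and 0.223% in the sham mice. The start of Bbs4, another subunit, read 0.562%, 0.507% and 0.236% against 0.236%, 0.522% and 0.375%. The groups overlapped at both genes. Among motile cilia genes the lowest were Dnal1, an outer arm light chain, at 0.390%, and Dnah6, an inner arm heavy chain, at 0.429%. No read was methylated at Dnah6 in hemicastrated replicate 2 (680 reads, which allow up to 0.441%) and at Dnal1 in replicate 2 of each group (211 and 271 reads, which allow up to 1.42% and 1.11%, taken as 3 reads and covering counting error only). The ends of sperm tail genes were as low: Cabyr, of the fibrous sheath, had 0.446%, Odf2, of the outer dense fibres, 0.559% and the tektin Tekt5 1.24%.

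The highest ends were those where the window at the other side of the gene was measured. For Ift122, an IFT-A subunit, 1 end had 1.18% and the other 98.1%; the latter stayed between 97.2% and 99.1% in the 6 libraries. For Ift27, a small GTPase of IFT-B, the start had 1.62% and the far end 77.9%. With both end windows summed, the highest in the motile cilia class were Tekt1 (95.6%) and Dnah2 (38.0%), an inner arm heavy chain. For both genes only the far end was measured, and not the start. The far end of Dnal4, taken alone, had 62.4%, and its start 0.541%. Foxj1 had 91.0% at its lower end and 2.60% at its upper end. Tekt5 went the other way: its far end, chr16:10357952-10395455 being the gene, held 19 sites at 0.753%, and its start 33 sites at 1.33%.

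Bodies, the genes without these windows, were methylated. The median over 39 members was 86.8%, against 76.5% over 12940 bodies of all genes, and 24 of the 39 lay above 80%, against 47.5% of all. The best covered bodies were those of some dynein heavy chains, which are long genes. Dnah17, an outer arm heavy chain of sperm, read 92.2%, 92.9% and 92.4% in hemicastrated and 92.8%, 92.9% and 93.0% in sham mice over 195 sites. All 10 heavy chain bodies had means between 61.2% (Dnah11, on 8 sites) and 95.1% (Dnah3, on 5 sites). Bodies of the 5 central pair and radial spoke genes lay between 71.3% and 89.6%, and those of 7 IFT-B genes between 55.6% (Ift52, on 3 sites) and 97.9% (Ift172, on 3 sites).

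By distance from the gene's start, members followed all genes closely. Levels were taken for each gene with at least 3 sites in a bin of distance. In the 1000 bp before the start the median was 0.617% over 8 members and 0.544% over all genes, and in the first 1000 bp past it 0.554% over 22 members and 0.551%. From there to 5000 bp it was 8.56% over 11 members and 12.9% over all genes, with 5 of the 11 below 5%. From 5000 to 20000 bp it was 89.7% over 14 members and 88.7%, and beyond that 86.8% over 22 members and 88.8%. No member was below 5% in the last 2 of these bins.

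**Figure D2:**
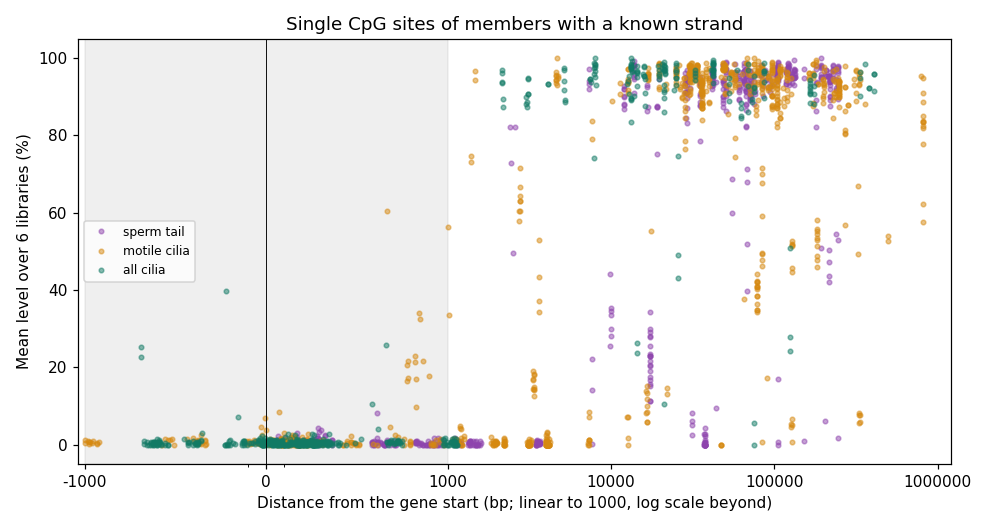
Mean level over 6 libraries, in percent, of each measured CpG site against its distance from the gene start in bp (linear to 1000 bp, log scale beyond), coloured by class, for members whose strand is known; the grey band marks the start window. Nearly all sites in the band lie near 0, and most sites beyond 5000 bp lie above 80%, with groups of low sites between.

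Few bodies were low. Sites no more than 500 bp apart were joined into blocks of at least 3. Of 43 blocks that reached an end window, 33 were below 5% and 3 above 80%. Of 141 blocks inside bodies, 5 were below 5% and 111 above 80%. The 43 blocks at ends need not belong to the member alone, since 17 of them, in 14 genes, lay within 1000 bp of another gene's boundary. Examples are Ift20 beside Tnfaip1 and Ift80 beside Smc4, while the far end of Tekt2 holds the promoter of Adprhl2.

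The 5 low blocks inside bodies were at Meig1, Dnah1, Rfx3, Dnah2 and Tekt1. Meig1, needed to build the sperm tail, lies at chr2:3409043-3422648, and its 26 sites, 3447 to 3660 bp inside the gene, read 0.636%, 0.325% and 0.146% in hemicastrated and 0.536%, 0.657% and 0.281% in sham mice. The block overlaps the inner start printed above, at 3519 bp, where 14 sites had 0.400%. The block of Dnah1 (chr14:31260375-31325891), an inner arm heavy chain, had 20 sites 1845 to 1993 bp inside at 0.479%, all of them in the inner start printed above. At the other 3 genes no listed promoter overlapped the block: Rfx3, which encodes a ciliary transcription factor, had 18 sites at 0.325%, Dnah2 12 sites at 0.575% and Tekt1 8 sites at 2.51%. The block of Rfx3, 3059 to 3230 bp inside the gene, lay just before the promoter of an inner start listed at 3503 bp. At Odf2 a single block of 101 sites ran from 580 to 1588 bp past the start at 0.503%, across the line that divides end from body here.

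**Figure D3:**
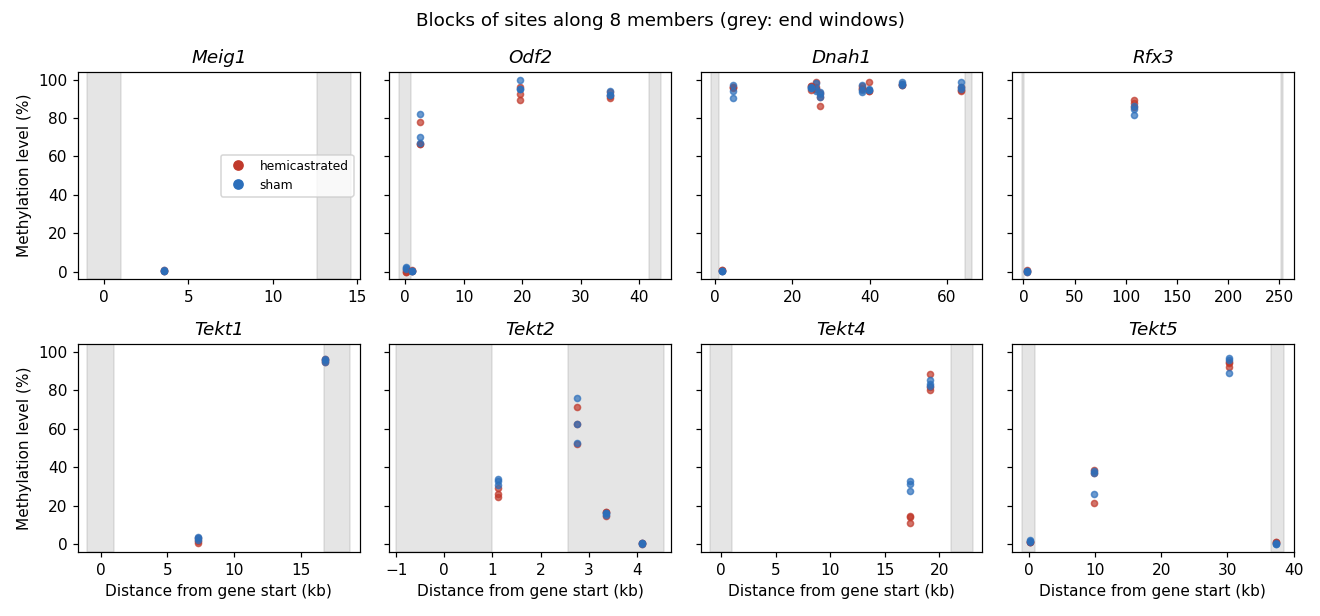
Level in percent of each block of neighbouring sites against its distance from the gene start in kb for 8 members, 1 point per library (red hemicastrated, blue sham); grey bands are the end windows. Low blocks lie inside the bodies of Meig1, Dnah1, Rfx3 and Tekt1, the start block of Odf2 reaches past its band, and in Tekt4 the hemicastrated points of the block near 17 kb lie below the sham points.

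Ends and bodies were compared within libraries in the 22 members that had both. edgeR's quasi-likelihood test with Benjamini-Hochberg adjustment called all 22, with a largest adjusted p of 1.24e-10. The end was lower in 21 and higher in 1. Over all 8094 genes tested, 91.3% were called and 81.7% had the lower end, so a call alone says little about these genes. The median of the members' differences, end minus body, was -67.9 points. The largest were in Ift80 (-93.7 ± 1.91 points, SD over the 6 libraries), Dnal1 (-93.0 ± 4.39) and Ift43 (-92.9 ± 1.34). The smallest drops were in Rfx2 (-4.13 ± 1.29), whose body was itself low at 4.68%, Odf2 (-24.5 ± 1.15) and Ift122 (-32.4 ± 2.45). Tekt1 was the reverse, at 93.1 ± 1.18 points, from its methylated far end and the low block in its body.

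The step from end to body was also compared between the groups. By edgeR's quasi-likelihood test 0 of the 22 members differed between groups after adjustment, as did 0.0% of all genes, and 2 had an unadjusted p below 0.05 (Bbs2, 0.00484, and Dnah2, 0.0408) against 4.24% of all genes. The step was -62.0 points in hemicastrated and -66.4 in sham mice at Bbs2, and -51.1 and -39.3 at Dnah2. The p comes from ratios of counts and does not measure these points. At the end of Bbs2 only 2, 4 and 2 reads were methylated in hemicastrated mice, and no read in the sham mice. Its body had 63.5% in hemicastrated and 66.4% in sham mice. Other tools were not run on this difference.

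At their ends, the few sperm tail genes measured were as low as genes of all cilia. The median end level over the 3 sperm tail genes with ends was 0.566%, 0.736% and 0.566% in hemicastrated and 0.572%, 0.520% and 0.678% in sham mice. Over 14 genes of all cilia it was 0.881%, 0.737% and 0.623% against 0.545%, 0.548% and 0.443%. The values of the 2 classes overlapped, and their mean difference, sperm tail minus all cilia, was -0.0232 points. It turned to 0.215 points without Odf2, which also acts at centrosomes. Meig1, left out in the same run, had no end sites. The medians of both classes lay near the level of mitochondrial DNA, so the sign of this difference carries no weight. With all measured end windows of a gene summed, the 14 motile cilia genes had a higher median, 1.63%, and held 5 of the 7 genes above 5%. At start windows alone the medians were 0.709% over 11 motile cilia genes, 0.595% over 12 of all cilia and 0.943% over 2 of the sperm tail. Of the 11 motile cilia starts, 10 were below 5%. The further list of 18 other sperm tail genes was higher, with a median of 30.8% over 9 end windows and 4 of them below 5%, whereas all 9 windows of other transport, motor and BBSome genes were below 5%. These lists count each window by itself and do not separate starts from far ends. Far ends had a median of 73.5% over all genes, so the list does not show that sperm tail starts were methylated.

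Bodies differed more between the classes. The median over 7 sperm tail genes was 67.0%, 68.1% and 64.4% in hemicastrated and 56.9%, 73.4% and 65.7% in sham mice, and over 13 genes of all cilia 89.3%, 90.0% and 93.5% against 91.6%, 91.6% and 92.7%. In each of the 6 libraries the sperm tail median was the lower, by 25.5 points on average (-25.5 ± 5.91, SD over libraries). The classes overlapped gene by gene. The 7 sperm tail bodies were Meig1 (0.430%), Odf2 (25.1%), Tekt4 (42.3%), Tekt5 (65.9%), Dnah8 (86.8%), Akap3 (90.0%) and Dnah17 (92.7%), whereas 10 of the 13 bodies of all cilia genes exceeded 80%. The lowest sperm tail bodies held sites near a listed start. All 26 body sites of Meig1 lay in the block at its inner start. Of the 24 body sites of Tekt4, 20 followed its inner start at 17041 bp. The start block of Odf2 reached into its body. Without Odf2 and Meig1, but with Tekt4 kept, the difference was -4.78 points, and with 20 reads in each library -7.19. No test was made over so few genes chosen with these results known.

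Hemicastrated and sham mice were then compared window by window, to ask whether losing the left testis before puberty went with another methylation of these genes in the right testis. No member passed at its ends, in its body or over the whole gene. At the ends, edgeR's quasi-likelihood test with Benjamini-Hochberg adjustment called 0 of 37 windows and 0.0% of the 16783 windows tested; an unadjusted p below 0.05 was found for 7 of the 37 against 4.34% of all. limma also called 0, with 8 below 0.05 unadjusted. The groups did not overlap in 8 of the 37 windows, 6 higher and 2 lower in hemicastrated mice, against 9.65% of all. The count of 7 fell to 4 without hemicastrated replicate 1, to 4 without sham replicate 2 and to 4 of 27 with windows of 500 bp.

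Of the ends that were higher in hemicastrated mice by the group means, Ttc21b, Bbs2 and Ift140 had the smallest p. The start of Ttc21b (chr2:66183787-66256674), which encodes an IFT-A subunit, read 1.09%, 0.514% and 0.678% in hemicastrated and 0.237%, 0.214% and 0.0571% in sham mice over 41 sites. The groups did not overlap, with means of 0.762% ± 0.298 and 0.170% ± 0.0981 (SD, n = 3 each), but the adjusted p by edgeR was 0.990. The sham values lay below the 0.478% to 0.617% of mitochondrial DNA, and hemicastrated replicate 2 lay within that range. Levels of this size cannot be told apart from incomplete conversion. Within its printed promoter, 9 sites read 2.30%, 0.808% and 0.421% against 0%, 0.377% and 0%, where 0% does not exclude a low level.

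The start of Bbs2 (chr8:94067952-94099369), a BBSome subunit, read 1.06%, 2.76% and 0.877% in hemicastrated mice, and no read was methylated in the sham mice. These were 2 of 188, 4 of 145 and 2 of 228 reads over 8 sites. The sham libraries had 176, 252 and 132 reads, so that 0 allowed levels of up to 1.7%, 1.19% and 2.27% (3 reads, counting error only), above the values of hemicastrated replicates 1 and 3. The 8 sites are the edge of a block of 28, from 973 to 1140 bp inside the gene, which read 0.293%, 2.12% and 0.373% against 0.163%, 0.897% and 0%. Over the whole block the groups overlapped. Ift140, an IFT-A subunit at chr17:25016083-25099499, had 0.697%, 0.851% and 0.653% against 0.550%, 0.350% and 0.392% over 68 sites, at the level of mitochondrial DNA. With windows of 500 bp that difference turned from 0.303 to -0.0226 points. The adjusted p by edgeR was 0.990 for both genes.

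The start of Spag17 (chr3:99885417-100143322), a central pair protein, was the highest start after Tekt2. It read 8.80%, 8.33% and 2.98% in hemicastrated and 1.66%, 1.97% and 3.54% in sham mice, so that hemicastrated replicates 1 and 2 stood above the other 4 libraries. It rested on 6 sites with as few as 113 reads in a library (unadjusted p = 0.0346 and adjusted p = 0.990 by edgeR). Foxj1 (upper end), Ift88 (start) and Tekt5 (far end) were the other windows whose hemicastrated values all lay above the sham values. Ift88, of the IFT-B core, had 0.555%, 0.807% and 0.583% against 0.290%, 0.216% and 0.479%, yet the 16 sites inside its printed promoter overlapped between groups (0.781%, 0.778% and 0.489% against 0.458%, 0.142% and 0.994%).

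**Figure D4:**
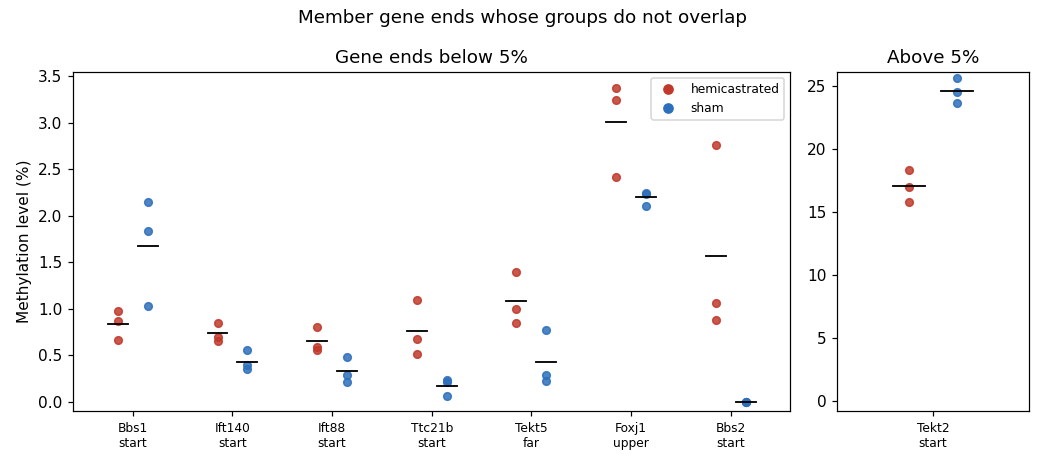
Methylation level in percent of the 8 member end windows whose groups do not overlap, 1 point per mouse (red hemicastrated, blue sham) with a black bar at each group mean; windows below 5% are on the left and Tekt2 on its own scale on the right. The windows on the left lie between 0% and 3.38%, and in Tekt2 the hemicastrated mice lie between 15.8% and 18.4% and the sham mice between 23.7% and 25.7%.

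Of the ends that were lower in hemicastrated mice, Tekt2 was well above the conversion background. Its start window (chr4:126322121-126325688 being the gene) read 15.8%, 17.0% and 18.4% in hemicastrated and 23.7%, 24.5% and 25.7% in sham mice, means of 17.1% ± 1.27 and 24.6% ± 0.985 (SD, n = 3 each). Its 13 sites lay past 774 bp inside the gene, since the promoter itself held no measured site, and the whole block of 16 sites read 24.4%, 26.1% and 29.3% against 30.8%, 33.0% and 33.9%. The groups did not overlap in either case (window, unadjusted p = 0.0198 and adjusted p = 0.990 by edgeR). The start of Bbs1, a BBSome subunit, read 0.870%, 0.667% and 0.977% against 1.03%, 2.14% and 1.83%, and the 16 sites in its printed promoter 0.911%, 0.808% and 1.16% against 1.17%, 2.74% and 1.95%. The far end of Dnah2 (chr11:69420807-69549108) read 26.1%, 38.4% and 31.4% against 35.1%, 50.7% and 46.5%, where the groups overlapped; another gene, Gm51903, has a boundary within 1000 bp of it.

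In the bodies, 0 of 39 members were called by edgeR's quasi-likelihood test, as were 0.0% of 12937 bodies, and 0 had an unadjusted p below 0.05 against 3.46% of all; limma gave 0 and 0. The groups did not overlap in 3 of the 39, against 7.95% of all bodies: Dnah8 and Ift122 were higher and Tekt4 was lower in hemicastrated mice. Dnah8 (chr17:30626935-30875762), an outer arm heavy chain of the sperm tail, read 88.5%, 87.1% and 87.8% against 86.1%, 86.2% and 84.9% over 137 sites (edgeR, unadjusted p = 0.0502 and adjusted p = 0.9999). Ift122 read 80.1%, 80.6% and 81.2% against 77.1%, 79.7% and 77.9%. Ift43, an IFT-A subunit, had the second smallest p among the higher ones, 0.148 unadjusted by edgeR, at 93.1%, 95.1% and 94.4% against 91.6%, 93.3% and 93.3%.

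Tekt4, a tektin of sperm, lies at chr17:25454549-25476602, and its body read 42.2%, 40.1% and 33.9% in hemicastrated and 43.5%, 46.1% and 47.9% in sham mice (edgeR, unadjusted p = 0.0788 and adjusted p = 0.9999). The difference sat in a block of 20 sites, 17240 to 17377 bp inside the gene, which followed an inner start that RefSeq lists at 17041 bp. That block, chosen after its values were seen and not tested by itself, read 14.7%, 13.9% and 11.1% against 27.8%, 31.2% and 32.9%. The other 4 sites of the body, nearer the far end, overlapped between the groups at 80.4%, 88.7% and 82.0% against 83.3%, 82.2% and 85.5%. Dnah11, an outer arm heavy chain, had 56.2%, 67.0% and 45.2% against 64.9%, 64.8% and 69.5%, and Foxj1 42.0%, 47.1% and 41.5% against 44.2%, 52.5% and 53.1%, each with a hemicastrated mouse inside the sham range.

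Over whole genes, edgeR called 0 of 48 members and 0.0% of 21342 genes; 0 members had an unadjusted p below 0.05 against 3.2% of all, and limma again gave 0 and 0. The groups did not overlap in 2 members, Dnah8 and Tekt4, whose measured sites all lie in the body, against 7.13% of all genes. The next smallest p among higher members were those of Ift20 (0.522%, 0.505% and 0.452% against 0.237%, 0.574% and 0.352%) and Rfx2 (1.99%, 1.504% and 1.97% against 1.15%, 2.12% and 1.51%). Among lower members they were Hydin, a central pair protein (80.8%, 83.7% and 79.2% against 82.3%, 86.9% and 82.2%), and Dnah11 (41.7%, 49.4% and 28.4% against 43.2%, 44.2% and 53.1%). All 4 overlapped between groups.

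At single sites, edgeR's quasi-likelihood test called 3 of the 1942 member sites tested and 706 of 814966 sites of the genome (0.0866%). An unadjusted p below 0.05 was found for 62 of the 1942, against 2.62% of all sites. All sites shared 1 estimate of the spread in this fit, so a site's own spread between mice did not enter its p. limma called 0 member sites, with 123 at an unadjusted p below 0.05 against 4.52% of all sites. All 3 calls were lost without hemicastrated replicate 1.

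Inside Dnah8, position 30807674 of chromosome 17 read 53.2%, 92.2% and 95.6% in hemicastrated and 97.5%, 98.7% and 97.7% in sham mice (adjusted p by edgeR 0.00260, and 0.000125 to 0.901 over its alternatives). The cytosine of the other strand, at 30807675, read 44.6%, 93.5% and 97.8% against 96.2%, 94.6% and 91.7%. On both strands the low value was that of hemicastrated replicate 1 alone. Inside Ift140, position 25037202 of chromosome 17 read 55.6%, 0% and 6.98% against 0% in all 3 sham mice, where the lowest coverage of 24 reads allows up to 12.5% (adjusted p by edgeR 0.0120, and 0.00375 to 0.901 over its alternatives). This too rested on hemicastrated replicate 1.

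Rsph9, a radial spoke head protein at chr17:46122038-46144242, had the called site with the widest gap between group means. Position 46126739 of chromosome 17, 17503 bp inside the gene, read 91.7%, 60.0% and 95.7% in hemicastrated and 55.0%, 0% and 29.2% in sham mice, with as few as 15 reads in a library. Its adjusted p by edgeR was 0.00469, and 0.00131 to 0.899 over its alternatives. The body of Rsph9 as a whole, with 3 sites, overlapped between the groups (66.4%, 72.1% and 76.0% against 75.1%, 67.1% and 71.3%).

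The sites with the next smallest p were not called. Position 30842064 of Dnah8 read 67.4%, 36.5% and 68.6% in hemicastrated and 32.8%, 27.9% and 29.0% in sham mice, and the other strand 68.4%, 39.5% and 69.0% against 33.8%, 38.4% and 35.2% (adjusted p by edgeR 0.443, and 0.0379 to 1 over its alternatives). The 10 sites of its block together read 83.4%, 72.7% and 86.4% against 69.6%, 70.9% and 70.0%, without overlap. That block holds the site chosen for its small p, so its values are no separate evidence, and it was not tested by itself. Position 25084807 of Ift140 was low in hemicastrated replicate 1 only (35.9% against 93.2% to 100% in the other libraries). Position 94086123 of Bbs2 was low in hemicastrated replicate 3 only, at 51.8% and, on the other strand, 46.9%.

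Such steps between single mice were as frequent in the members as elsewhere: 34 of 2253 sites (1.51%) spanned 40 points or more over the 6 libraries, against 1.38% of all sites. They fell in 15 genes, 8 of them in Dnah8, 4 in Hydin and 3 each in Ift27, Tekt4 and Tekt2, and 6 of the 34 lay at ends. The windows with the widest ranges were the far end of Ift27, the far end of Dnah2 and the body of Dnah11. The far end of Ift27 read 72.5%, 71.4% and 84.0% in hemicastrated and 71.5%, 96.4% and 71.7% in sham mice, so that sham replicate 2 was highest, hemicastrated replicate 3 next and the other 4 libraries close together. The Dnah2 and Dnah11 windows, whose values are given above, spanned 24.6 and 24.3 points.

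Other genes of cilia and sperm tails were taken from 4 further lists. Of 24 other axoneme genes, 15 had ends measured, in 18 windows, of which 13 were below 5% (median 1.26%). All 9 windows of 19 other transport, motor and BBSome genes were below 5% (median 0.551%), as were all 6 windows of 8 other regulators of ciliogenesis (median 0.587%). Other sperm tail genes were higher, with a median of 30.8% over 9 windows, 4 of them below 5%. Starts and far ends were pooled in all these lists. By edgeR's quasi-likelihood test 0 of these windows were called, with 1 at an unadjusted p below 0.05, in the axoneme list. The bodies had medians of 83.3%, 93.6%, 77.5% and 21.6% over 19, 8, 9 and 7 genes, in the order of axoneme, transport, sperm tail and regulator lists. Of these 0 were called, with 2 of the transport bodies at an unadjusted p below 0.05.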

How the data were processed

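Testis DNA of 6 mice was made into MspI libraries of short fragments, converted with bisulfite and read in pairs on an Illumina GAII, per the labels' protocols. The submitters' processing notes name Bismark, TopHat2 2.0.11 and GRCm38. The authors deposited raw methylated and unmethylated counts for each cytosine position. The deposited percent equals the methylated share of those counts. The files name neither strand nor context, and how reads were trimmed or duplicates handled is not stated in the labels. Of 144463 kept sites inside RefSeq promoters, 99.99% lay on a CpG.

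Genes came from RefSeq (GRCm38.p6), and all 53 symbols were found. Sites needed 10 reads in all 6 libraries and windows 3 such sites, whose counts were summed. edgeR 4.0.16 in R 4.3.3 tested methylated against unmethylated counts, with library effects and a group effect on methylation (quasi-likelihood F test, Benjamini-Hochberg over all features with distinct sites, threshold 0.05). limma 3.58.1 on log2 ratios, 1 added to each count, was an alternative, as were other coverage minimums and window sizes, a robust prior, a replicate block and leaving out each library. On simulated data, shifts at ends of intermediate level were recovered less often than shifts in bodies. No shift was placed in the nearly unmethylated ends, so recovery there was not tested. Windows methylated in no read or every read were left out.

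Members, classes and lists were chosen with earlier results of these data known. Named genes were those with the smallest p in each direction (3 per region), the widest range, the extreme levels and the extreme differences of end and body. Replicates are separate mice. Precision comes from read counts, and PCR copies are not independent molecules.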

Additional observations from a re-analysis of the deposited data

How the results depend on the processing

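Counts of member windows called stayed at 0 at ends, in bodies and over whole genes under each alternative run. Differences of end and body were called in all 22 members with any 1 library left out and in 16 of 17 with 500 bp. Calls at single sites, 3 as reported, were 0 with limma and ran from 0 to 4 with 1 library left out. Sperm tail minus all cilia at ends, -0.0232 points as reported, was 0.215 without Odf2 and Meig1, 0.440 with sperm tail and motile cilia together and 0.296 with 500 bp. In bodies, -25.5 as reported, it was -44.6 with unweighted means of sites, -4.78 without Odf2 and Meig1, -9.62 with the classes together, -7.19 with 20 reads and -35.7 with 500 bp. The median over 31 members' ends minus the median over 39 members' bodies was -85.1 points in the main setting. It was -83.7 with unweighted means and -81.6 with 500 bp. This is another measure than the -67.9 points above, which is the median of differences within 22 genes. The cause of these shifts was not tested. Of 317 values of named windows and sites under alternatives, 301 kept their direction and side of the threshold, 13 lost a call, 1 gained one (Dnah8 position 30842064 without hemicastrated replicate 2, adjusted p by edgeR 0.0379) and 2 reversed: the start of Ift140 to -0.0226 points with 500 bp and the far end of Ift27 to 4.34 without sham replicate 2 (leaving out 1 library each gave -8.11 to 4.34).

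The labels' replicate numbers were not taken as pairs: deviations of same-numbered samples correlated by 0.0306, 0.0186 and 0.0185 at ends and by 0.0447, -0.00866 and 0.00187 in bodies. Those of different-numbered samples correlated by -0.0191 to -0.000125 at ends and by -0.0370 to 0.0354 in bodies. With the replicate number as a block, 0 member windows were called in each region and 2 of the 3 single sites, the site of Ift140 being the 1 lost. At ends, levels at that of mitochondrial DNA cannot be told apart from incomplete conversion.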

Other observations

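The 5 members that did not reach 3 covered sites still had scattered calls, summed here over all listed positions of any depth in the gene and 1000 bp around it. Tekt3, a tektin of sperm, lay between 76.4% and 80.1% in the 6 libraries on 109 to 215 calls. Odf1, of the outer dense fibres, lay between 83.3% and 100% on 3 to 28 calls. Bbs5, a BBSome subunit, ran from 38.7% to 65.6% on at most 254 calls. Ift22, a small GTPase of IFT-B, ran from 10.1% to 35.8% on 232 to 338 calls. Ift74, of the IFT-B core, ran from 1.62% on 1912 calls to 43.6% on 202 calls. Different positions were covered in different libraries, so no comparison between groups was made.

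Inside Dnah2 a block of 12 sites, 2195 to 2237 bp from the start, read 0.858%, 0.915% and 0.992% in hemicastrated and 0.228%, 0.204% and 0.253% in sham mice. The block was chosen after its values were seen and was not tested by itself. Its sham values lay below the 0.478% to 0.617% of mitochondrial DNA and its hemicastrated values above that range. Levels of this size cannot be told apart from incomplete conversion. Inside Dnah8 2 further blocks were low for a body, with 12.2% over 3 sites and 5.40% over 4 sites, in a gene whose body as a whole was at 86.8%.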
